A study of Mus musculus with 12 samples.

Results

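A set of 9 genes, of 55401 in the expression table, was followed in mouse acute myeloid leukemia (AML) cells driven by MLL-AF9. They were taken by name from what is known of the fusion and of leukemic self-renewal. The rule uses no measured value, but the genes were chosen with earlier results of these data known. Kmt2a and Mllt3 encode the partners of the fusion itself (MLL and AF9), Men1, Psip1 and Dot1l encode cofactors on which the fusion depends, and Cdk6, Myb, Myc and Bmi1 encode drivers of leukemia growth and self-renewal. Of the 9 genes, 8 passed a minimum mean of 1 TPM (length-scaled transcript abundance, summing to 1000000 in each library) over the 12 libraries and were tested among 15026 genes, whereas Mllt3 stayed below it.

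As background, MLL is a histone methyltransferase that keeps Hox genes active in blood stem cells, and the fusion joins its amino-terminal part to the carboxy-terminal part of AF9. Menin (Men1) and LEDGF (Psip1) tether the MLL part to chromatin, and the AF9 part brings in DOT1L, which methylates histone H3 within the gene body, together with elongation factors. The fusion keeps Hoxa cluster genes, Meis1, Myb and Cdk6 transcribed, MYC drives growth and ribosome production, and BMI1, a polycomb protein, silences the Cdkn2a locus that would otherwise arrest self-renewing cells.

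All cells were MLL-AF9 leukemia cells, made by retroviral transfer of MLL-AF9 with a GFP marker into mouse bone marrow progenitors and passaged through mice more than 10 times. They were transplanted into female mice of 8 to 12 weeks that were not irradiated: immunologically normal C57BL/6 mice (WT), Rag2-/- mice (C57BL/6J-Rag2em3Lutzy/J), which form no mature B or T lymphocytes, and NSG mice, in which NK cells are missing as well. GFP+ cells were sorted from the bone marrow of moribund animals, and poly-A RNA of 4 animals per host, labelled as biological replicates, was sequenced. The comparison asks whether the fusion machinery and the self-renewal genes kept their level from host to host. It also asks whether they were steady from animal to animal within 1 host. NSG mice differ from the C57BL/6 hosts in strain as well as in immune cells, and these cannot be told apart here. The MLL-AF9 transgene is not a row of the table, the species of its cDNA is not given in the sources used here, and transgene reads cannot be told apart from endogenous Kmt2a or Mllt3 reads in the gene totals.

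The spacing of low TPM values corresponded to 16.0 to 42.9 Mreads (1000000 counted reads) per library, with WT libraries at 16.0 to 27.2, Rag2-/- libraries at 17.4 to 42.9 and NSG libraries at 19.0 to 33.2 Mreads. All 12 genes taken as leukemia cell markers had a mean of 1 TPM or more, and normal myeloid cells express such genes too. Ms4a1, Cd3e and Trac, which define B and T cells, were at 0 in all libraries, but other lymphoid markers were not. Sums of 8 B and plasma cell markers were 4.38 to 9.98 TPM (WT), 2.76 to 5.43 (Rag2-/-) and 3.55 to 8.76 (NSG). For 12 T and NK cell markers they were 5.57 to 9.46 TPM (WT), 3.66 to 10.0 (Rag2-/-) and 3.35 to 9.01 (NSG). One of the 12 leukemia cell markers, the granule enzyme gene Mpo, was called lower in Rag2-/- than in WT (145 against 553 TPM). Its log2 fold change was -2.13 against WT (limma adjusted p = 0.0189) and -1.69 against NSG (442 TPM in NSG, adjusted p = 0.0968). The summed TPM of 15 neutrophil markers ranged from 1555 to 3371 across WT libraries, from 1932 to 3302 across NSG and from 2543 (replicate 4) to 11200 across Rag2-/- libraries. The Rag2-/- level was called higher for 13 of these 15 markers against WT and for 9 against NSG, with Ltf, Camp and S100a8 among both. Most of the sum was Chil3, at a mean of 1946 TPM in WT, 6070 in Rag2-/- and 2001 in NSG. Chil3 itself was not called against WT (limma adjusted p = 0.0957). For each of the 13 markers called against WT, all Rag2-/- libraries, replicate 4 included, lay above all WT libraries. For 11 macrophage markers the sum ranged from 165 to 186 TPM across WT, from 140 to 184 across NSG and from 212 to 231 across Rag2-/- libraries. Of 9 tested, 8 had estimates above 0 in Rag2-/- against WT and 2 were called higher (C1qc and Hmox1), with 1 called against NSG (Hmox1). Hmox1 had means of 49.9 TPM in WT, 72.4 in Rag2-/- and 48.7 in NSG, whereas Adgre1 had 57.4, 55.0 and 53.5. In sorted bulk cells, fewer cells of a type and less RNA per cell cannot be told apart. NSG replicate 3 stood furthest from its group, with a limma library weight of 0.359 against 0.673 for NSG replicate 1 and 0.964 to 2.42 for the other libraries.

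None of the 8 tested genes passed the test for a difference between hosts. A gene was called when limma gave a Benjamini-Hochberg adjusted p below 0.05 together with a log2 fold change beyond 0.5 in either direction. By that rule 0 of 8 were called in Rag2-/- against WT, where 1.47% of all tested genes were, 0 of 8 in Rag2-/- against NSG, where 0.213% were, and 0 of 8 in NSG against WT, where 0% were. At an unadjusted p below 0.05, Dot1l alone passed against WT, in both Rag2-/- and NSG, which is 1 of 8 in each comparison beside 20.9% and 9.16% of all genes, and 0 of 8 passed in Rag2-/- against NSG beside 12.6%. A moderated F test over the 3 hosts called 0 of 8 after adjustment, with 1.1% of all genes called, and Dot1l passed it only unadjusted, as did 17.9% of all genes.

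**Figure D1:**
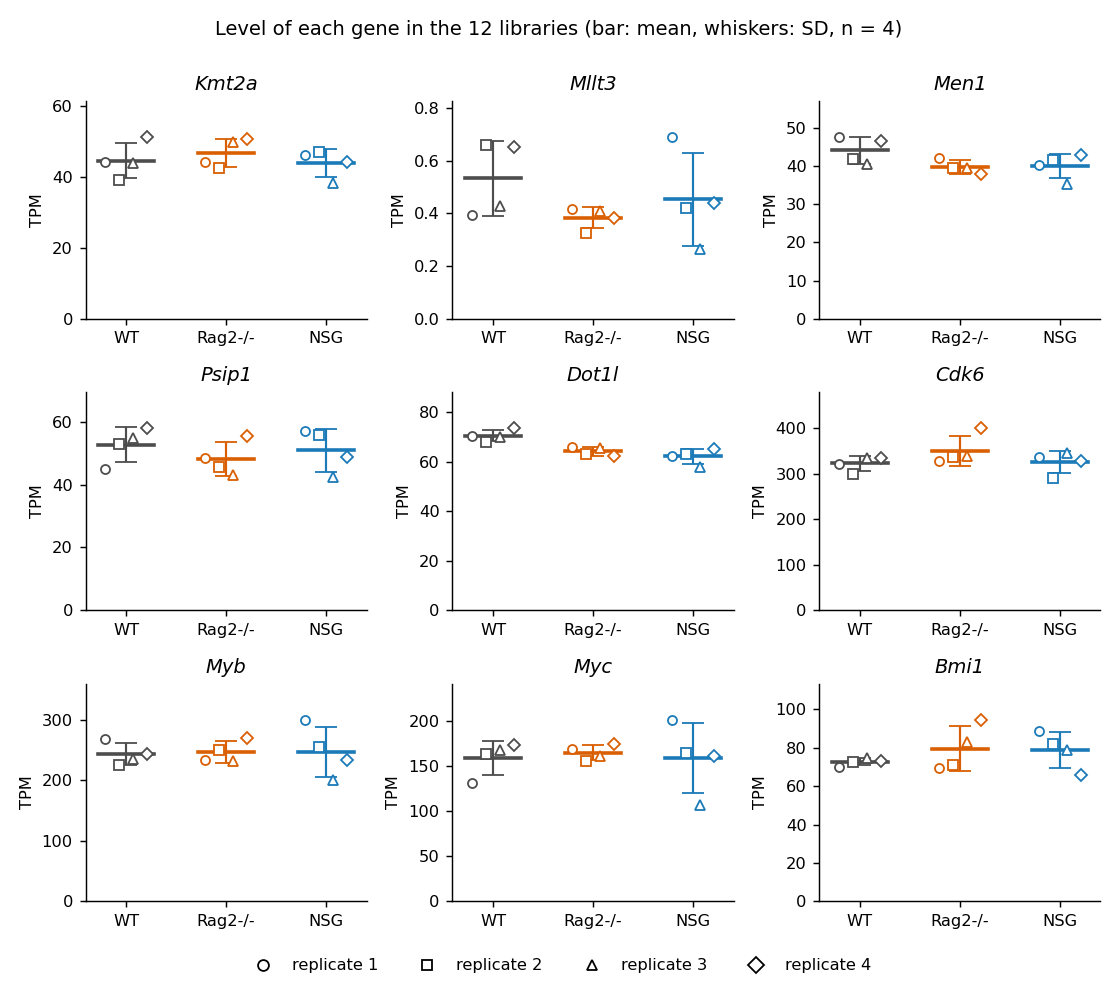
Level in TPM (y axis, from 0) of the 9 genes in WT, Rag2-/- and NSG libraries, with a symbol for each replicate, a bar for the mean and whiskers for the SD (n = 4 per host). The hosts overlap for each gene except Dot1l, where all 4 WT libraries (67.9 to 73.4 TPM) lie above all others, and NSG replicate 3 (triangle) is the lowest of 12 libraries for 7 of the 9 genes.

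The 8 tested genes were well expressed, between the 68.3rd and the 97.2nd percentile of mean level among tested genes. Per length, Cdk6 was the highest with a mean of 333 TPM over 12 libraries, followed by Myb at 246 TPM, Myc at 161, Bmi1 at 77.0, Dot1l at 65.6, Psip1 at 50.7, Kmt2a at 45.0, Men1 at 41.4 and Mllt3 at 0.456 TPM. Cdk6 exceeded Myb in 12 of 12 libraries, Myb exceeded Myc in 12, Myc exceeded Bmi1 in 12 and Dot1l exceeded Psip1 in 12. Neighbours whose order changed between libraries were Bmi1 and Dot1l (Bmi1 higher in 10 of 12), Psip1 and Kmt2a (Psip1 higher in 11) and Kmt2a and Men1 (Kmt2a higher in 10). The drivers of self-renewal thus ranked above the fusion partners and cofactors in mean level.

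Kmt2a (chr9:44803355-44881296, minus strand, GRCm38) supplies the chromatin-binding part of the fusion. Its TPM was 44.0, 39.1, 43.8 and 51.1 in WT replicates 1 to 4, 44.2, 42.5, 49.6 and 50.5 in Rag2-/-, and 46.1, 46.8, 38.3 and 44.2 in NSG. The hosts overlapped over most of their range, and the highest WT library was the highest of all. The log2 fold change on the log2(TPM + 1) scale was 0.07 (95% interval -0.13 to 0.27) for Rag2-/- against WT, 0.09 (-0.11 to 0.29) for Rag2-/- against NSG and -0.02 (-0.22 to 0.18) for NSG against WT, with limma adjusted p of 0.704, 0.758 and 0.967.

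Mllt3 (chr4:87769925-88033364, minus strand), which supplies the AF9 part, had the lowest gene total of the set. It gave 0.395, 0.660, 0.426 and 0.652 TPM in WT, 0.418, 0.327, 0.409 and 0.381 in Rag2-/-, and 0.689, 0.419, 0.265 and 0.437 in NSG, which corresponds to 18 to 55 estimated reads per library. WT libraries lay within or above the narrow Rag2-/- range, and NSG libraries lay on both sides of it. A fit without the filter on low values gave -0.14 (95% interval -0.38 to 0.09), -0.06 (-0.29 to 0.17) and -0.08 (-0.31 to 0.15) in the same order of comparisons, with adjusted p of 0.621, 0.897 and 0.879, and since 1 was added to each value these numbers understate changes at this level. Any reads of the fusion transgene that the counting assigned to mouse Mllt3 would be part of these values. Mllt1, which encodes the AF9 homolog ENL of the same elongation complexes, stood at 57.8, 55.4 and 55.5 TPM in WT, Rag2-/- and NSG (it was chosen after its values were seen).

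Men1 (chr19:6334979-6340891, plus strand) encodes menin, the adaptor between MLL and chromatin. Its level was 47.7, 41.9, 40.6 and 46.7 TPM in WT, 42.3, 39.7, 39.5 and 38.0 in Rag2-/-, and 40.3, 41.6, 35.5 and 42.9 in NSG. WT replicates 1 and 4 lay above all libraries of the other hosts, and WT replicates 2 and 3 lay among them. The difference from WT was -0.14 for Rag2-/- (95% interval -0.30 to 0.02, adjusted p = 0.296) and -0.14 for NSG (-0.30 to 0.02, adjusted p = 0.591), while Rag2-/- and NSG were at 39.9 ± 1.79 and 40.1 ± 3.25 TPM (SD, n = 4).

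Psip1 (chr4:83455680-83486459, minus strand) encodes LEDGF, which binds menin and methylated chromatin. It was measured at 45.0, 53.0, 55.0 and 58.0 TPM in WT, 48.7, 45.7, 43.0 and 55.6 in Rag2-/-, and 57.3, 55.8, 42.3 and 48.9 in NSG. Every host held libraries below 50 and above 55 TPM, so the spread within a host was as wide as the spread between hosts. The 3 differences were -0.13 (95% interval -0.37 to 0.11), -0.08 (-0.32 to 0.16) and -0.05 (-0.29 to 0.19).

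Dot1l (chr10:80755206-80795461, plus strand), the methyltransferase recruited through AF9, was the gene of the set with the clearest order between hosts. It stood at 70.4, 67.9, 70.0 and 73.4 TPM in WT, at 65.9, 63.2, 65.4 and 62.3 in Rag2-/-, and at 62.3, 63.3, 57.8 and 64.9 in NSG. All 4 WT libraries were above all 8 libraries of the immunodeficient hosts, while Rag2-/- and NSG overlapped. Host means were 70.4 ± 2.28, 64.2 ± 1.75 and 62.1 ± 3.05 TPM (SD, n = 4). The difference from WT was -0.13 for Rag2-/- (SE 0.05, 95% interval -0.24 to -0.02, limma adjusted p = 0.160, unadjusted p = 0.0215) and -0.18 for NSG (SE 0.05, 95% interval -0.29 to -0.07, limma adjusted p = 0.364, unadjusted p = 0.00345). Neither passed the adjusted test, and the adjusted p lay between 0.0730 and 0.290 for Rag2-/- and between 0.216 and 0.729 for NSG over 23 alternatives. The comparisons share the WT libraries and are not independent of each other. A separation of this kind, with all 4 libraries of the first host below all 4 WT libraries, was found for 6.72% of tested genes in Rag2-/- and for 2.38% in NSG. The intervals of Dot1l against WT were the only 2 of the 24 intervals of tested genes that excluded 0.

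Cdk6 (chr5:3341485-3531008, plus strand) encodes a cyclin D dependent kinase on which MLL-driven AML relies. It reached 322, 300.3, 335 and 334 TPM in WT, 327, 336, 339.8 and 399 in Rag2-/-, and 338, 289.5, 345 and 329 in NSG. Rag2-/- replicate 4 lay above and NSG replicate 2 below all libraries of the other hosts. Rag2-/- replicate 4 also had the lowest neutrophil marker sum of its host (2543 TPM against 8841 to 11200), a sum that was mostly Chil3. The part of this sum in the Cdk6 value was not tested. The log2 fold change was 0.12 against WT (95% interval -0.04 to 0.28, adjusted p = 0.394) and 0.11 against NSG (-0.05 to 0.27, adjusted p = 0.596), and without Rag2-/- replicate 4 it was 0.05 and 0.04.

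Bmi1 (chr2:18677018-18686629, plus strand), a component of polycomb repressive complex 1, shared that library at the top. Its TPM was 70.2, 72.8, 74.8 and 73.0 in WT, 69.5, 71.0, 83.0 and 94.6 in Rag2-/-, and 88.7, 81.9, 78.8 and 65.9 in NSG. The WT libraries lay between 70.2 and 74.8 TPM, whereas in Rag2-/- and NSG the values reached from below the lowest WT library to above the highest. The SD was 1.88 TPM in WT, 11.7 in Rag2-/- and 9.56 in NSG, a difference in spread that was not tested. Mean differences were 0.12 against WT for Rag2-/- (95% interval -0.11 to 0.34) and 0.11 for NSG (-0.12 to 0.33), with adjusted p of 0.561 and 0.799. Without Rag2-/- replicate 4 the first was 0.03, and the second was 0.05 without NSG replicate 1 and 0.19 without NSG replicate 4.

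Cdk6 and Bmi1 were also the only genes, of those with a promoter window, that held a CACGTG E-box, the palindromic site bound by MYC and MAX, in the window from 250 bases before to 50 bases after a RefSeq start site (GRCm38.p6). RefSeq windows were at hand for 7 of the 9 genes, all but Psip1 and Myc. These genes had 10 windows, and the box was in 1 of Bmi1 and 1 of Cdk6. Genome-wide, 2349 of 32851 windows (7.15%) held this motif. The stretches from the start of the window to the bases past the box are printed to show it, on the plus strand with the box in capitals, for Bmi1 at chr2:18676768-18676845 and for Cdk6 at chr5:3343643-3343715. The motif was chosen after these windows were read, and a match is a description of the letters, not a bound site.
Bmi1: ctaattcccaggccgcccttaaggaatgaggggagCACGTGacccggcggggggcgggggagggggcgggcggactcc
Cdk6: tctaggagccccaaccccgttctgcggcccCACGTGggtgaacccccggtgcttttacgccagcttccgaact

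Myb (chr10:21124935-21160984, minus strand) encodes the transcription factor that maintains the immature state of AML cells. Its TPM was 268, 225, 236 and 244 in WT, 233, 250.2, 233 and 271 in Rag2-/-, and 299.9, 255, 201 and 233 in NSG. Both the highest and the lowest of the 12 libraries were NSG libraries, replicates 1 and 3. The host means of 243 ± 18.4, 247 ± 18.0 and 247 ± 41.5 TPM (SD, n = 4) nearly coincided, with log2 differences of 0.02 (95% interval -0.21 to 0.25), 0.01 (-0.22 to 0.23) and 0.01 (-0.21 to 0.24).

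Myc (chr15:61985391-61990374, plus strand) had the widest spread of the tested genes of the set. It was at 131, 163, 168 and 173 TPM in WT, 169, 155, 161 and 174 in Rag2-/-, and 201, 164, 107 and 161 in NSG. NSG replicates 1 and 3 were again the extremes, 1.88-fold apart, and the other 2 NSG libraries fell inside the WT and Rag2-/- range. The difference was 0.06 for Rag2-/- against WT (95% interval -0.27 to 0.39), 0.09 for Rag2-/- against NSG (-0.24 to 0.42) and -0.03 for NSG against WT (-0.36 to 0.30). Its sign depended on single libraries, since NSG against WT was -0.16 without NSG replicate 1 and 0.14 without NSG replicate 3, with no call in either case. Without both, it was 0.04 (95% interval -0.18 to 0.26).

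**Figure D2:**
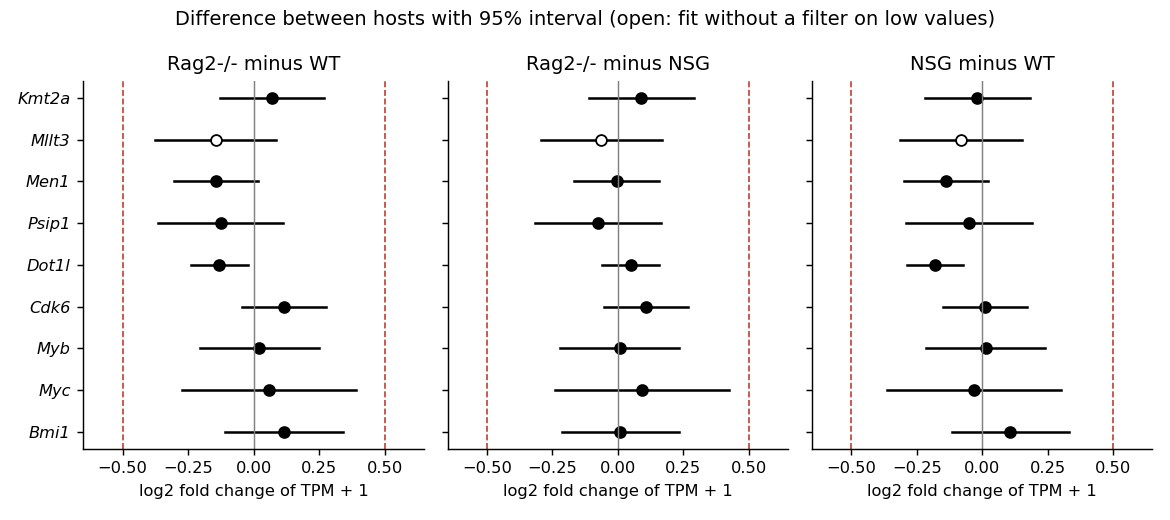
Log2 fold change of TPM + 1 (x axis) with its 95% interval from limma for each gene in the 3 comparisons of hosts, with the limit of 0.5 dashed and Mllt3 (open) from a fit without a filter on low values. All intervals stay inside the limit, and those of Dot1l against WT are the only ones that leave out 0. For Mllt3, at a mean of 0.456 TPM, the added 1 understates changes, so its intervals do not bound its change in TPM at that limit.

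The intervals bound how large a host effect could be. All 24 intervals of the 8 tested genes lay inside 0.5 on the log2 scale in both directions, and the widest reached 0.42, for Myc in Rag2-/- against NSG. Such bounds were common at these levels: 52.2% of all tested genes had all 3 intervals inside 0.5, and so did 84.9% of the 4336 genes with a mean between those of Men1 and Cdk6. The largest of the 3 absolute differences had a median of 0.12 over the 8 genes and 0.20 over all tested genes. The bound depended on a single library in 1 case, since without NSG replicate 1 the interval of Myc in Rag2-/- against NSG was -0.09 to 0.53 around 0.22.

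The genes differed widely in how steady they were from animal to animal. The SD of log2(TPM + 1) within hosts was 0.05 for Dot1l, 0.10 for Men1, 0.11 for Cdk6, 0.14 for Kmt2a, 0.16 for Bmi1 and Myb, 0.17 for Psip1 and 0.25 for Myc. Dot1l was among the steadiest genes of the transcriptome, with 1.52% of tested genes below its SD. Although 7 of the 8 genes lay below the median SD of all tested genes (0.17), only Dot1l and Men1 lay below the median of genes within 2-fold of their own mean level. Against such genes of like level, Myc was at the 94.0th percentile of spread, Myb at the 82.7th, Psip1 at the 78.4th, Bmi1 at the 77.6th, Kmt2a at the 60.1st, Cdk6 at the 58.1st, Men1 at the 29.5th and Dot1l at the 2.33rd. The SD from counting alone, estimated for read pairs, was 0.01 for Cdk6, 0.02 for Myb, 0.03 for Kmt2a, 0.04 for Myc and 0.05 for Psip1 and Bmi1. It took a larger part of the spread of the steadiest genes, at 0.03 beside 0.05 for Dot1l and 0.06 beside 0.10 for Men1.

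**Figure D3:**
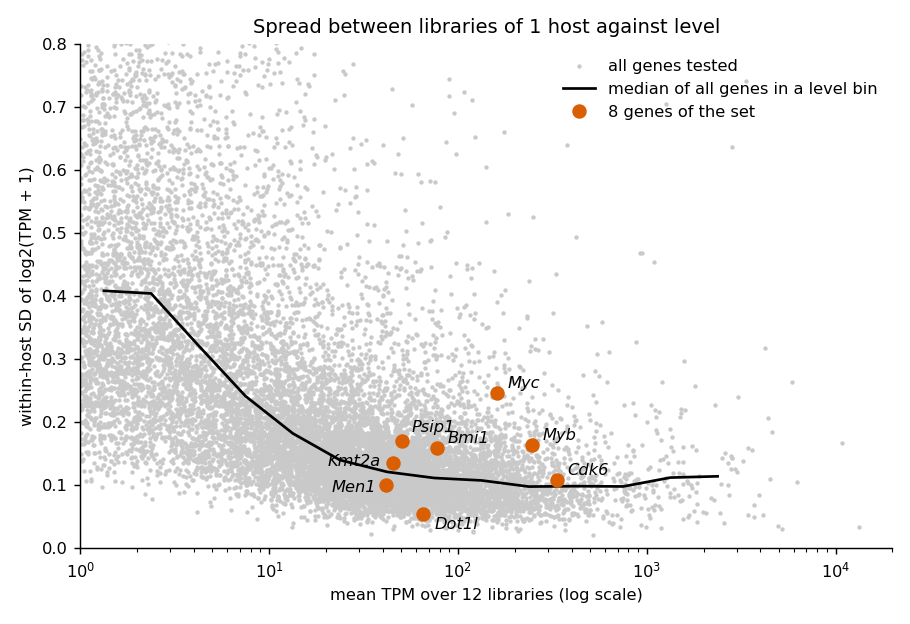
SD of log2(TPM + 1) within hosts (y axis) against mean TPM over 12 libraries (x axis, log scale) for all 15026 tested genes (grey), their median in level bins (line) and the 8 genes of the set (orange), with 752 genes above 0.8 not drawn. Dot1l lies at the lower edge of the cloud and Myc near the upper edge at its level.

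For Myc and Myb, the spread rested largely on NSG replicates 1 and 3. NSG replicate 3 was the lowest of all 12 libraries for 7 of the 9 genes (Kmt2a, Mllt3, Men1, Psip1, Dot1l, Myb and Myc), and 19.4% of all tested genes also had their lowest value there. Its Myc was 0.53 below the NSG mean on the log2 scale, its Myb 0.28 and its Psip1 0.26 below, while its Cdk6 was 0.09 above. NSG replicate 1 was the highest of 12 for Mllt3, Myb and Myc, as it was for 12.7% of all tested genes. The leukemia marker sum moved the same way, lowest of 12 in NSG replicate 3 (18678 TPM) and highest in NSG replicate 1 (25192 TPM). Most of that sum was Elane and Ctsg, at means of 10761 and 6231 TPM over 12 libraries. The neutrophil sums of NSG replicates 3 and 1 were 2226 and 2524 TPM. NSG replicate 3 was also lowest of 12 for the macrophage (140 TPM), T and NK cell (3.35) and stromal and endothelial (91.4) marker sums. It was not the lowest for the B and plasma cell (3.55 TPM) or erythroid (4.66) sums. The part of these values in the result was not tested. Without both libraries the SD of Myc fell to 0.13 and that of Myb to 0.10, at the 77.9th and 65.2nd percentile of like-level genes over the same 10 libraries. The other genes moved less, with an SD of 0.13 for Kmt2a, 0.08 for Men1, 0.15 for Psip1, 0.04 for Dot1l, 0.11 for Cdk6 and 0.16 for Bmi1, and Dot1l and Men1 were again the only genes below the median. The library farthest from its host mean was WT replicate 4 for Kmt2a and Rag2-/- replicate 4 for Cdk6 and Bmi1.

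**Figure D4:**
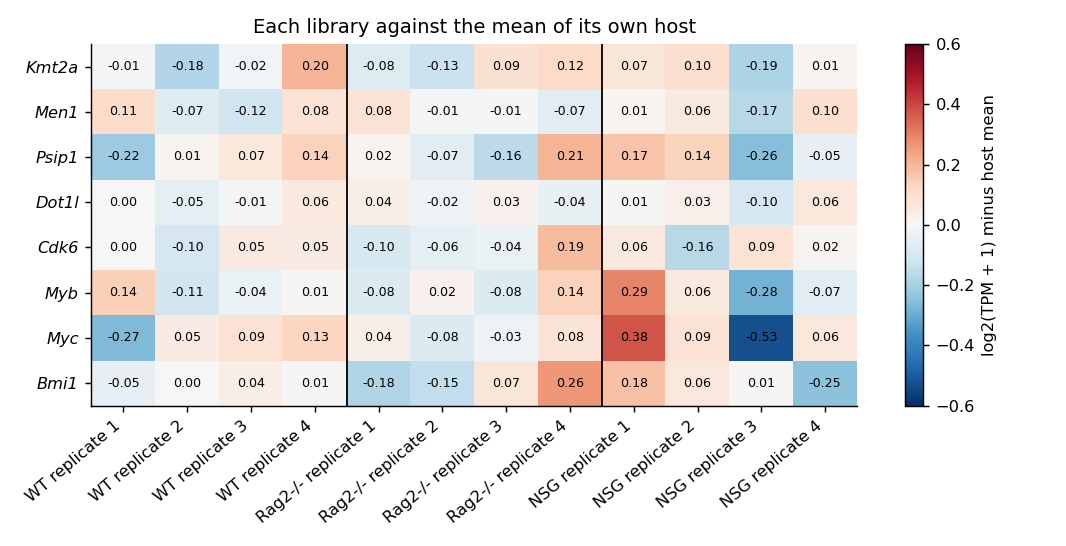
Difference in log2(TPM + 1) of each library from the mean of its host (color and number) for the 8 tested genes (rows) in the 12 libraries (columns, hosts divided by lines). NSG replicate 3 is below its host mean for 6 of the 8 genes, beside 55.2% of all tested genes, and down to -0.53 for Myc. NSG replicate 1 is above its host mean by up to 0.38.

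Within hosts, some genes of the set rose and fell together across animals. After the host means were subtracted, the Pearson correlation over 12 libraries was 0.85 for Psip1 and Myc, 0.83 for Men1 and Dot1l, 0.64 for Kmt2a and Dot1l and 0.61 for Myb and Myc, with a median of 0.43 over the 28 pairs. The first pair stood at 0.83 without NSG replicates 1 and 3 and the second at 0.68, but Myb and Myc went to -0.40, so that this correlation rested on those libraries. Men1 and Bmi1 ran in opposite directions (-0.44, and -0.52 without the 2 libraries). These are descriptions of 12 libraries that share depth and composition, and TPM values of 1 library sum to a fixed total.

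The genes most like each one over the 12 libraries, by Pearson correlation of log2(TPM + 1), were as follows. Kmt2a was nearest to 1700020I14Rik (0.96, and 0.96 with host means subtracted) and to G2e3 (0.96 and 0.96), Men1 to Spop (0.95 and 0.92) and Flad1 (0.93 and 0.90), and Dot1l to Tmem81 (0.92 and 0.83) and Ganab (0.92 and 0.79). For Psip1 the nearest were Ctso (0.95 and 0.96) and Mga (0.94 and 0.96). Cdk6 was nearest to Mfsd4a (0.89 and 0.92) and Nhsl2 (0.88 and 0.86), Myb to Fam107b (0.96 and 0.96) and Ulk2 (0.94 and 0.95), Myc to Ap2b1 (0.95 and 0.95) and Crot (0.93 and 0.94), and Bmi1 to Dnm1l (0.93 and 0.92) and Cnot7 (0.92 and 0.95). With 15026 candidates and 12 libraries, correlations of this size describe these libraries only.

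No partner or target of the set was called either. In 8 lists with 133 genes, of which 118 were tested, 0 genes were called in any of the 3 comparisons, beside the shares of all genes given above, and 1 gene lay beyond 0.5: E2f2, a transcription factor of the cell cycle, at 61.8 TPM in WT, 97.7 in Rag2-/- and 73.2 in NSG (0.63 for Rag2-/- against WT, adjusted p = 0.128).

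All 16 genes of the menin-MLL methyltransferase complex were tested. In Rag2-/- against WT they ranged from -0.22 for Wdr82 and -0.20 for Kmt2d to 0.13 for Paxip1 and 0.20 for Hcfc2, with a median of -0.04 beside 0.02 over all tested genes. Among 17 tested genes of the super elongation, DOT1L and PAF1 complexes the median was -0.02, with Mllt10 (AF10, the DOT1L partner) at 0.16 and Leo1 at 0.14 on the higher side. Wdr61 stood at -0.23 (adjusted p = 0.129), and Eaf1, an ELL-associated elongation factor, at -0.25 (93.5 TPM in WT and 78.6 in Rag2-/-, adjusted p = 0.0280), which passed the p but not the fold limit. The fusion's own target genes had a median of 0.10 over 13 tested, from Bcl2 at -0.26 and Flt3 at -0.19 to Jmjd1c at 0.26 (adjusted p = 0.0716) and Hoxa5 at 0.30 (177 TPM in WT, 219 in Rag2-/- and 192 in NSG, adjusted p = 0.108).

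For the cyclin D and CDK4/6 axis, which holds CDK6's partner cyclins, its inhibitors and the E2F factors downstream, the median was 0.08 over 15 tested genes. The inhibitors Cdkn2b and Cdkn2a stood at -0.45 (adjusted p = 0.417) and -0.39 (adjusted p = 0.150), and the inhibitor Cdkn1a at 0.38 (adjusted p = 0.149). Cdkn2a, the locus that BMI1 represses, was at 114 TPM in WT, 87.4 in Rag2-/- and 103 in NSG. Ccnd1 and Ccnd2 were below 1 TPM, leaving Ccnd3 as the cyclin D gene expressed, at 162, 186 and 161 TPM in WT, Rag2-/- and NSG (named after its values were seen).

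The 12 tested genes of the MYC network ranged from -0.19 for Mxd4 and Zbtb17 to 0.12 for Mxd1 and 0.19 for Mxd3 in Rag2-/- against WT. Mxd1, Mxd3 and Mxd4 all encode antagonists of MYC at MAX and did not share a direction. In NSG against WT all 12 estimates were below 0, with a median of -0.09 and 0 called, beside 48.5% of all tested genes below 0. They reached -0.23 for Mxd4 and lay near 0 for Mxd1 (-0.02) and Max (-0.002). NSG replicate 3 was below its host mean for 55.2% of all tested genes, and its part in this count was not tested. Of 20 MYC target genes, most of them for ribosome production and protein folding, 18 were lower in Rag2-/- than in WT by the sign of the estimate, with a median of -0.13, and 0 were called. Over all tested genes the median was 0.02 and 45.5% were lower. In Rag2-/- against NSG 15 of 20 were lower (median -0.10), and in NSG against WT 12 of 20 (median -0.01). The neutrophil markers that were higher in Rag2-/- came from the same libraries, and their part in this count was not tested. Rrs1 was at -0.34 (187 TPM in WT and 147 in Rag2-/-, adjusted p = 0.0833) and Hspd1 at -0.26, while Wdr43 was at 0.02 and Eif4e at 0.15. The count was 16 to 19 of 20 when WT or Rag2-/- libraries were left out 1 at a time, with the median between -0.15 and -0.09, and the lowest count was without Rag2-/- replicate 4. Myc itself was at 165 ± 8.12 TPM in Rag2-/- and 159 ± 18.9 in WT (SD, n = 4).

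The 9 genes of the MYB family and its coactivators and targets had a median of 0.04, from Kit at -0.42 (109.6 TPM in WT and 82.9 in Rag2-/-, adjusted p = 0.0839) and Cebpb at -0.15 to Crebbp at 0.19 and Taf12 at 0.30. Crebbp, a coactivator that MYB binds, stood 0.46 higher in Rag2-/- than in NSG (25.1 and 18.0 TPM, adjusted p = 0.0968). Polycomb repressive complex 1, in which BMI1 acts, had a median of -0.03 over 16 tested genes, from Cbx2 at -0.37 and Pcgf5 at -0.26 to Phc3 at 0.11 and Rybp at 0.25.

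**Figure D5:**
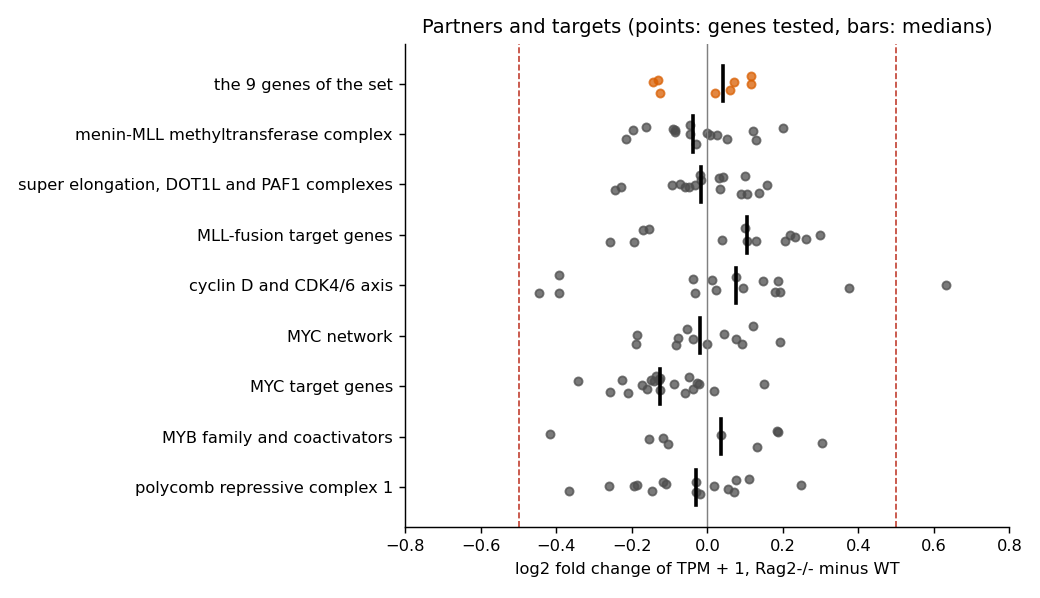
Log2 fold change of TPM + 1 in Rag2-/- against WT (x axis) for the tested genes of the set (orange, 8 of 9) and of 8 lists of partners and targets (grey), with list medians as bars and the limit of 0.5 dashed. A single gene, E2f2 at 0.63, lies beyond the limit, and the median of the MYC targets (-0.13) is the lowest.

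Exons of 4 genes of the set overlap a gene on the opposite strand, and whether the counting used strand is not given in the sources used here. Psip1 shares 9.50% of its exon bases with Snapc3 (10.6 TPM), Myb 6.26% with Gm26577 (8.65 TPM), Cdk6 2.63% with Gm17590 (4.56 TPM) and Kmt2a 2.27% with AC061963.1 (0.303 TPM), so part of their values could belong to those genes.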

How the data were processed

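RNA of GFP+ sorted leukemia cells was sequenced by the authors as paired-end, poly-T selected libraries, aligned to mm10 with HISAT2 on Galaxy, counted per gene and deposited as TPM, a transcript abundance scaled by length and library, of 55401 genes, each library summing to 1000000. The version of the aligner is not given in the sources used here. Samples were grouped by the genotype in the labels, 4 per host.

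The 15026 genes whose mean reached 1 TPM were fitted on log2(TPM + 1) with limma 3.58.1 in R 4.3.3 (eBayes with a trend, all 12 libraries, no covariates), and calls required a Benjamini-Hochberg adjusted p below 0.05 and an absolute log2 fold change above 0.5. The fit was tried on simulated data with independent noise for each gene and known changes far larger than those of the set. That trial does not bear on differences as small as these or on deviations shared within a library. A fold change on this scale understates the change of low genes. Symbols, exon lengths and positions came from GENCODE M21 (55141 genes matched). TPM times exon length fell on whole multiples of 1 unit for 98.8 to 99.1% of genes under 20 units (tolerance 0.05), and this unit was taken as 1 read. Of these whole values 65.8 to 68.9% were even, so mates of a pair may have been counted singly, and fragments would then be fewer than the reads given. The estimated reads served for depth, counting error and a voom alternative only. Descriptive values came from pandas 2.3.3 and scipy 1.17.1 under Python 3.11.15, and plots from matplotlib 3.10.9. Genes below the filter, Mllt3 among them, were left out of the calls.

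The 9 genes, the lists and the tests were chosen with earlier results of these data known. Named by rule were the 9 genes, any called gene of the partner and target lists (0 were called), defining markers and marker sums, the 2 lowest and the 2 highest genes of each list in Rag2-/- against WT, and the 2 genes most like each tested gene of the set. P-values measure the spread between labelled biological replicates. Alternatives changed the pseudocount, filter, scaling, variance model, library weights, libraries in the fit, block and fold limit, or left out each library, and after the data were seen voom and a fit without NSG replicates 1 and 3 were added.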

Additional observations from a re-analysis of the deposited data

Results flagged for a closer look

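In 48 groups of 4 libraries (the 9 genes of the set and the 7 marker sums in each host), 3 values stood apart from the other libraries of their host by the gap to the nearest library as a share of the range, against Dixon's 95% critical value. Chance flags about 1 in 20 groups, which is 2.4 of 48, and none of the 9 genes was among them. The sum of T and NK cell markers in NSG replicate 3 was low, with a gap share of 0.843 (3.35 TPM against 8.12 to 9.01). The sum of erythroid markers was high in Rag2-/- replicate 1, with a gap share of 0.838 (13.1 TPM against 7.03 to 8.02), and in NSG replicate 1, with a gap share of 0.862 (12.6 TPM against 3.38 to 4.66).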

How the results depend on the processing

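All 8 tested genes of the set stayed without a call in each comparison under all 23 alternatives. The F test, which the fit of 8 libraries alone does not give, called none of them under the other alternatives. Over the 3 comparisons the largest absolute difference of the 8 genes was 0.22 and the lowest limma adjusted p 0.0730 (Dot1l, Rag2-/- against WT). The sign changed under some alternative for 11 of their 24 differences, and never for Dot1l. The count of called genes was less steady. For Rag2-/- against WT it was 221, and 114 with no filter, 434 with library weights, 355 with the 8 libraries alone, 338 without NSG replicates 1 and 3, 420 with no fold limit and 47 to 326 with 1 library left out, among them 47, 120 and 140 without WT replicates 2, 3 and 4, and 53 and 51 without Rag2-/- replicates 2 and 3. For Rag2-/- against NSG it was 32, and 14 with a pseudocount of 0.1, 7 with no filter, 19 with quantile normalization, 11 with median-ratio scaling, 18 without a trend, 11 with library weights, 6 with the 8 libraries alone, 59 with voom (46 higher and 13 lower), 5 without NSG replicates 1 and 3 and 4 to 90 with 1 library left out. Leaving out WT replicates 1, 3 or 4 gave 20, 19 and 12, Rag2-/- replicates 1 to 4 gave 6, 5, 4 and 90, and NSG replicates 1 to 4 gave 8, 5, 87 and 5. For NSG against WT it was 0 (1377 at an unadjusted p below 0.05), and 2 with no filter, 1 with voom and 0 to 2 with 1 library left out, 2 without WT replicate 2 and 1 without NSG replicate 2. The cause of these shifts was not tested, beyond the larger number of genes (27667) or smaller number of libraries that an alternative brings.

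Replicate numbers did not pair the libraries: same-numbered libraries of different hosts correlated between -0.09 and 0.03 in their deviations from host means over 12 pairs, and 0 libraries were closest to their own number. With the replicate number as a block, 165, 5 and 0 genes were called in the 3 comparisons, and 0 of the set. Depth limits Mllt3 most, at 18 to 55 estimated reads, and intervals and counting errors cover no other source of error.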

Other observations

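Cdk4, the gene of the other cyclin D dependent kinase, gave a different order of hosts from Cdk6 (it was chosen after its values were seen). Cdk4 was at 354 ± 19.5 TPM in WT, 269.7 ± 28.6 in Rag2-/- and 324 ± 16.9 in NSG (SD, n = 4), a log2 fold change of -0.39 for Rag2-/- against WT (SE 0.07) that passed limma's test after Benjamini-Hochberg adjustment and not the fold limit. Its limma adjusted p was 0.0195. The ratio of Cdk6 to Cdk4 TPM was 0.977, 0.796, 0.945 and 0.944 in WT replicates 1 to 4, 1.18, 1.36, 1.37 and 1.30 in Rag2-/-, and 1.04, 0.848, 1.15 and 0.997 in NSG. All 4 Rag2-/- libraries were above all 8 others, though the lowest Rag2-/- ratio (1.18) lay close to the highest NSG ratio (1.15). Cdk6 alone overlapped between hosts in every comparison, and Cdk4 overlapped between Rag2-/- and NSG. How many gene ratios separate the hosts in this way was not counted. The ratio is a description with no test, since gene and ratio were picked for their values. The neutrophil marker sum, which was mostly Chil3, was 8841 to 11200 TPM in Rag2-/- replicates 1 to 3 and 2543 in Rag2-/- replicate 4. It was at most 3371 TPM elsewhere, and its part in the ratio was not tested.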
